A study of Mus musculus with 60 samples.

Results

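The libraries described here are 6 bulk brain RNA libraries of a mouse Htt knockout line in which the deposited Htt level was low. They were chosen by measured Htt and not by genotype: of the 24 libraries of the KO line, all with Slc17a7 below 100 FPKM (fragments mapped to a gene, scaled to transcript length and library size), those with Htt below 13.5 FPKM form the low-Htt group (6) and the other 18 are the comparison libraries, out of 60 libraries in the series. The mice were c57BL-6N and 3 months old. Their genotype is known here from the labels only, which give 2 normal Htt alleles (+/+, 12 libraries) or 1 KO allele (KO/+, 12 libraries). Males and females and cortex and striatum were labelled in equal numbers. The labels name no treatment in these groups. They name no other allele, except that the title of 1 low-Htt library (striatum KO/+ female 3) names the other mouse line of the series. That line carries another Htt exon 12 allele (delta12), and the library was placed here by its genotype label. The KO allele came from 1 founder of an editing experiment on exon 12: the donor site at the end of that exon is deleted. A mouse that inherits the allele carries it in every cell. Because Htt chose the groups, its values below are a description and were not tested, and the libraries set against each other are not a treated and an untreated group.

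Huntingtin, the product of Htt, is a large scaffold protein that links vesicles to microtubule motors, acts in BDNF transport, Golgi organisation and ciliogenesis, and is cut by caspase-6 near the end of the segment that exon 12 encodes. Loss of both alleles is lethal in the mouse embryo, whereas mice with 1 working allele live. The striatum is made up mostly of GABAergic projection neurons of the direct pathway (Drd1, Tac1) and of the indirect pathway (Drd2, Adora2a, Penk), and it receives BDNF from the cortex.

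Htt lies on chromosome 5, plus strand, at chr5:34761744-34912534 (GRCm38), and its full-length GENCODE M21 transcript has 67 exons and 13215 bases. Exon 12 is coding, spans 341 bases at chr5:34812852-34813192, and is followed by exon 13 at chr5:34817143-34817269. The junction is shown because the KO allele lacks the splice donor that joins these exons. Capitals mark the last 60 bases of exon 12 (chr5:34813133-34813192) and lower case the first 30 bases of exon 13 (chr5:34817143-34817172), from the GENCODE M21 transcript. The bases that the KO allele lacks are not marked.
Htt exon 12-13 junction: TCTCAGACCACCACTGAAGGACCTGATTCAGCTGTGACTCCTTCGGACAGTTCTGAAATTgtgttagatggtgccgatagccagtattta

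All 6 low-Htt libraries were labelled KO/+. They comprised 3 male and 3 female libraries, 3 labelled cortex and 3 labelled striatum. The comparison libraries comprised all 12 labelled +/+ and the other 6 labelled KO/+, so that low Htt and the KO/+ label go together in part. Deposited Htt was 11.6 FPKM in striatum male 2, 11.7 in striatum female 1, 11.8 in striatum female 3, 12.0 in cortex male 2, 12.0 in cortex female 2 and 12.6 in cortex male 1. These 6 libraries lay close together, at a mean of 12.0 ± 0.353 FPKM (SD, n = 6). The comparison libraries ranged from 15.1 to 18.1 FPKM with a median of 16.7 (mean 16.5 ± 0.820, SD, n = 18), and no library lay between 12.6 and 15.1 FPKM, the values nearest to the threshold on its 2 sides. The ratio of the group means was 0.724, or 27.6% below the comparison libraries. The 6 other libraries labelled KO/+ ranged from 15.1 to 17.3 FPKM, inside the range of the 12 labelled +/+ (15.4 to 18.1) apart from the lowest of them.

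FPKM depends on what else is in a library, so all values were also divided by a median-of-ratios scale factor per library ("rescaled FPKM" from here on). Rescaled Htt was 11.1 in striatum female 3, 12.1 in cortex female 2, 12.1 in striatum male 2, 13.4 in striatum female 1, 13.6 in cortex male 2 and 13.9 in cortex male 1. The groups still did not overlap, since the comparison libraries ranged from 14.6 to 18.2. The ratio was 0.790, or 21.0% below, and 2 of the 6 low-Htt libraries (cortex male 1 and cortex male 2) lay above 13.5 on this scale. Rescaled Htt was 15.8 ± 1.12 in the libraries labelled +/+ (SD, n = 12) and 16.7 ± 0.623 in the other libraries labelled KO/+ (SD, n = 6). The gene-level value covers all exons, and no exon 12 or allele-specific level was analysed here.

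**Figure D1:**
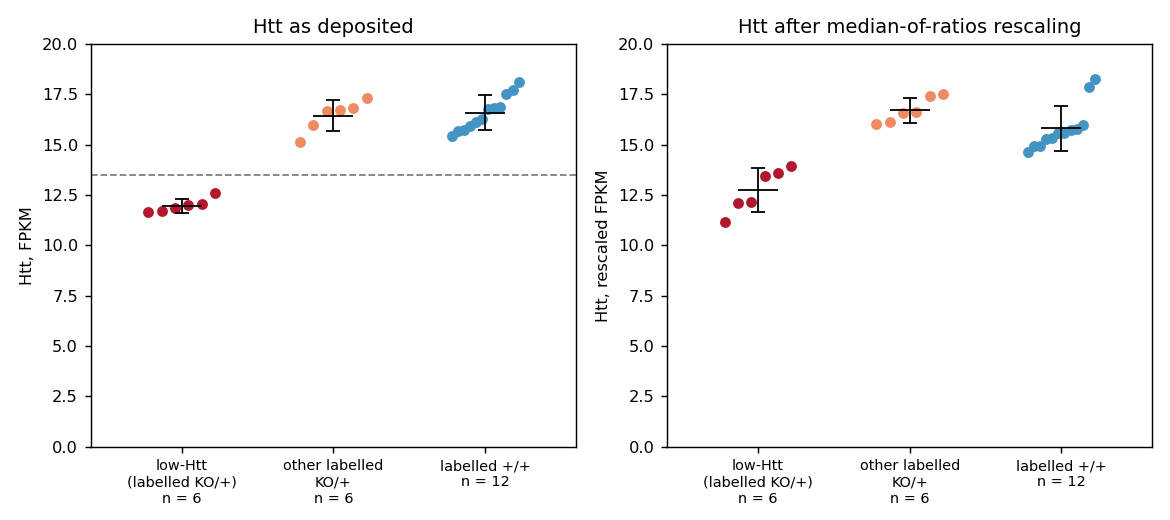
Htt in each of the 24 KO-line libraries, as deposited FPKM (left) and as rescaled FPKM (right). Points are libraries, black bars the group means and whiskers the SD; the dashed line is the 13.5 FPKM threshold that chose the low-Htt group, whose 6 libraries sit between 11.6 and 12.6 FPKM on the left.

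Several facts of the libraries bear on every comparison below. All 24 expressed striatal projection neuron genes, whatever their tissue label (rescaled Drd1 29.2 to 55.7, Ppp1r1b 306 to 635), whereas Slc17a7, the vesicular glutamate transporter of cortical excitatory neurons, stayed between 5.22 and 64.8 FPKM as deposited. Among the libraries labelled cortex Slc17a7 reached 64.8, 53.9 and 40.0 in KO/+ male 3, female 1 and male 1, and the limit on Slc17a7 was part of how all 24 were chosen. The sex-linked transcripts Xist and Ddx3y went with the labelled sex in 6 of 6 low-Htt libraries but in only 7 of 18 comparison libraries. The 11 others were 9 of the 12 labelled +/+ and 2 of the 6 labelled KO/+, so they fall mostly in 1 arm of every comparison of labelled genotypes. Libraries that share a mouse number also differed. Deposited Htt in cortex and striatum was 12.6 and 16.7 FPKM for KO/+ male 1, 15.1 and 11.7 for female 1, 12.0 and 16.7 for female 2, and 16.0 and 11.8 for female 3. It was alike for male 2 (12.0 and 11.6) and male 3 (17.3 and 16.8). KO/+ female 1 had high Ddx3y in cortex and high Xist in striatum, as had KO/+ male 3, +/+ male 1 and +/+ female 3. For +/+ male 3 cortex had high Xist and striatum high Ddx3y. The cortex and striatum libraries of each of these numbers thus did not come from 1 mouse. Whether the genotype and tissue labels and the other mouse numbers hold was not tested. The 10 entries of highest FPKM took 28.3 to 36.7% of all FPKM in 3 comparison libraries labelled KO/+ (striatum male 1, striatum male 3 and cortex female 3) and 60.9 to 86.6% in the other 21. The deposited confidence bounds imply about 17000000 to 27500000 fragments per low-Htt library and 16400000 to 24400000 per comparison library. The labels do not say that libraries of 1 group came from separate mice, since cortex and striatum share mouse numbers, so p-values measure only the spread between these libraries.

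The first question was whether other transcripts differed between the low-Htt and the comparison libraries. No gene was called: of 15574 genes tested with limma, 0 passed an adjusted p of 0.05 (Benjamini-Hochberg; 0% called). At an unadjusted p under 0.05 there were 2268 genes (14.6% of those tested), 1032 higher in the low-Htt libraries (6.63%) and 1236 lower (7.94%). The smallest adjusted p was 0.0526. The median log2 fold change over all genes tested was 0.00 after rescaling and -0.11 on FPKM as deposited, so differences below are those after rescaling. The 95% interval of the median gene was 0.17 wide on each side on the log2 scale. Without those 3 libraries of low top-10 share, 6 genes were called, 1 higher and 5 lower. No gene other than Htt had all 6 low-Htt libraries below or above all 18 comparison libraries (0 of 15574, 0%).

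The second question was what each part of that division contributed. Set against the 6 other libraries labelled KO/+ alone, the low-Htt libraries gave 0 calls among 15572 genes (limma, 0% called), with 712 genes at an unadjusted p under 0.05 (4.57% of those tested) and a smallest adjusted p of 0.980. Set against the 12 libraries labelled +/+ alone, they gave 941 calls, 284 higher and 657 lower. Within the 18 comparison libraries, where no library has low Htt, the 6 labelled KO/+ differed from the 12 labelled +/+ in 370 of 15505 genes (2.39% called), 100 higher and 270 lower. Over all 24 libraries the labelled genotypes differed in 1599 genes (10.3% called), 584 higher and 1015 lower. Genes were thus called between the labelled genotypes also where Htt was not low, and none was called between low and normal Htt within the KO/+ label. These comparisons share libraries and differ in size, and the difference between them was not tested. On FPKM as deposited, without rescaling, the split was 16 higher and 327 lower within the comparison libraries and 123 higher and 2320 lower over all 24. With only the libraries whose sex-linked transcripts go with the labelled sex, the genotype calls were 0 within the comparison libraries (4 labelled KO/+ and 3 labelled +/+) and 8 over all (10 and 3), in designs of far fewer libraries. With the mean level of the myelin genes, which itself differed between the labelled genotypes, as a further term they were 0 and 4. The 370 calls became 0 also with the mean level of 6 cortical excitatory markers as a further term, and 18 without the 3 libraries of low top-10 share. The part of cell composition in these calls was not tested.

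**Figure D2:**
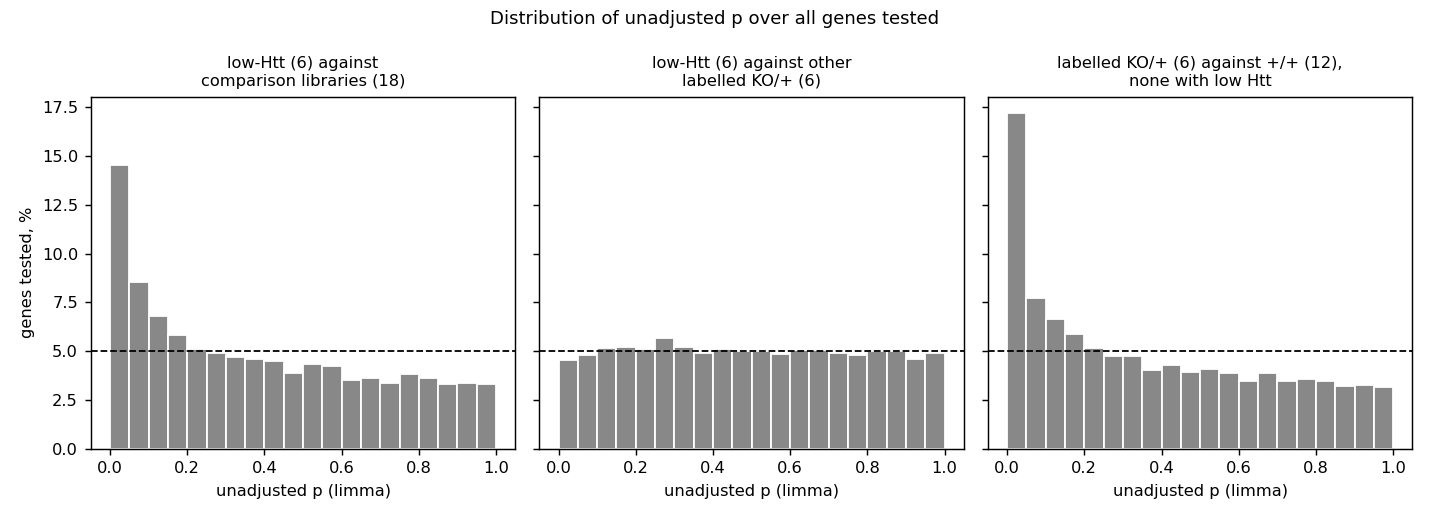
Share of the genes tested (y axis, %) in each of 20 bins of unadjusted p (x axis) for 3 comparisons that share libraries; the dashed line is the 5% that each bin would hold if p were uniform. The lowest bin holds 14.6% of genes for low-Htt against comparison libraries, 4.57% within the KO/+ label and 17.2% between labelled genotypes without low-Htt libraries.

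The 10 genes of smallest unadjusted p in the comparison of low-Htt with comparison libraries are given as genes that were not called. Ddc, which encodes the decarboxylase that makes dopamine and serotonin, was at 1.21, 1.64, 1.69, 1.92, 2.10 and 2.44 rescaled FPKM in the low-Htt libraries. It ranged from 1.76 to 3.61 in the other libraries labelled KO/+ and from 2.71 to 4.18 in those labelled +/+. All 6 low-Htt libraries lay below every +/+ library, and 3 of the 18 comparison libraries, all labelled KO/+, lay below the highest low-Htt value. The log2 fold change was -0.67 (95% interval -0.89 to -0.44; limma, adjusted p = 0.0526), and Ddc passed the threshold when cortex male 1 of the low-Htt group was left out (limma, adjusted p = 0.00387). Within the KO/+ label it was -0.44 (unadjusted p = 0.00865, limma), and between labelled genotypes without low-Htt libraries Ddc was also called lower in KO/+, at -0.35 (limma, adjusted p = 0.0230). Th, the rate-limiting enzyme of dopamine synthesis, was at 1.03 to 1.61 in the low-Htt and 0.872 to 3.43 in the comparison libraries, and the groups overlapped.

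Ebf1, a transcription factor of direct-pathway projection neurons, was at 3.86, 4.12, 4.13, 4.13, 4.19 and 4.53 rescaled FPKM in the low-Htt libraries. The other KO/+ libraries ranged from 2.91 to 3.96 and the +/+ libraries from 2.36 to 3.73. The groups overlapped in 1 low-Htt and 1 comparison library, and the log2 difference was 0.38 (95% interval 0.22 to 0.53; limma, adjusted p = 0.152). Within the KO/+ label the difference was 0.30 (unadjusted p = 0.00144, adjusted p = 0.980, limma).

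The other 8 of these genes had the same adjusted p of 0.152 (limma) and differences of similar size. Gm44094 (log2 difference 0.53), Cntn5 (0.45), a neuronal cell adhesion molecule, Atp6ap1l (0.43), Fubp1 (0.37), a single-strand nucleic acid binding protein, Pvr (0.35), an immunoglobulin-family adhesion receptor, and Dcc (0.25), the netrin receptor, were higher in the low-Htt libraries. Sema3d (-0.36), a secreted semaphorin, and Hint3 (-0.30), a nucleotide hydrolase, were lower. Atp6ap1l ranged from 4.03 to 5.29 in the low-Htt libraries and from 2.37 to 4.09 in the comparison libraries. Sema3d ranged from 0.593 to 0.830 and from 0.798 to 1.45 in these groups. In both genes a single comparison library lay inside the range of the low-Htt group.

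Hap1, a huntingtin-associated adaptor of vesicle transport, was at 11.7 to 15.4 rescaled FPKM in the low-Htt libraries. It ranged from 10.2 to 20.3 in the other libraries labelled KO/+ and from 11.5 to 30.6 in those labelled +/+, and all 6 low-Htt libraries lay within both ranges. The log2 difference from the comparison libraries was -0.42 (95% interval -0.78 to -0.05; limma, adjusted p = 0.281). Within the KO/+ label it was -0.10 (unadjusted p = 0.547, limma). Between labelled genotypes Hap1 differed by -0.47 without low-Htt libraries (limma, adjusted p = 0.179). Over all 24 libraries it was called lower in KO/+, at -0.52 (limma, adjusted p = 0.0113). Over the 27 huntingtin partners tested, 1 was higher and 2 were lower at an unadjusted p under 0.05 and none was called. These were 11.1% of the list, below the 14.6% of all genes, and the median log2 difference was -0.03. The higher one was Itpr1 (0.21), the IP3 receptor, and the other lower one was Kif5a (-0.16), a kinesin heavy chain. Casp6, the protease that cuts huntingtin, was at 0.481 to 1.46 in the low-Htt and 0.586 to 1.49 in the comparison libraries, a log2 difference of 0.05 (95% interval -0.18 to 0.29). Of the 7 caspase genes tested, 1 was higher at an unadjusted p under 0.05 (Casp2, 0.26), or 14.3% against 14.6% of all genes.

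Of the neurotrophin genes, 7 of 10 passed the filter on low values, which Bdnf did not. Ngfr, the p75 neurotrophin receptor, was at 0.680, 0.711, 0.713, 0.717, 1.08 and 1.18 rescaled FPKM in the low-Htt libraries. The other libraries labelled KO/+ ranged from 0.704 to 1.23 and those labelled +/+ from 1.59 to 2.73. Both KO/+ groups lay wholly below the +/+ libraries and overlapped each other. Against the comparison libraries the log2 difference was -0.67 (95% interval -1.04 to -0.30; limma, adjusted p = 0.162), and Ngfr had the smallest p between labelled genotypes without low-Htt libraries, at -0.82 (limma, adjusted p = 0.000668). Ntrk3 (0.22), the receptor of neurotrophin-3, was higher and Snap25 (-0.11), a synaptic vesicle fusion protein, lower at an unadjusted p under 0.05.

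Most striatal projection neuron genes had small positive differences in the low-Htt libraries after rescaling, and none was called; on FPKM as deposited the medians of the direct, indirect and shared lists were 0.01, -0.00 and 0.09. All 9 direct-pathway genes had a positive difference (median 0.13 on the log2 scale, against 0.00 over all genes), 2 of them at an unadjusted p under 0.05 (Ebf1 and Chrm4, a muscarinic receptor). Of the 8 indirect-pathway genes tested 6 were positive (median 0.11) and 0 were at an unadjusted p under 0.05. Of the 25 genes shared by both pathways 24 were positive (median 0.22), with 10 higher and 1 lower at an unadjusted p under 0.05 (44.0% against 14.6% of all genes). Among them were Rgs9 (0.32), a striatal regulator of G protein signalling, Foxp1 (0.30) and Meis2 (0.27), both transcription factors of these neurons. The lower one was Prkcd, a protein kinase C, with the largest difference of these lists (-1.26; limma, adjusted p = 0.249), at 1.97 to 11.4 rescaled FPKM in the low-Htt and 3.15 to 43.6 in the comparison libraries. In the indirect-pathway list Plxdc1 (-0.08) and Upb1 (-0.04) were negative. Drd1 was at 38.1, 40.6, 41.7, 48.3, 51.3 and 55.7 rescaled FPKM in the low-Htt libraries. It ranged from 33.7 to 54.3 in the other libraries labelled KO/+ and from 29.2 to 46.1 in those labelled +/+, and the groups overlapped. Its log2 difference was 0.21 (95% interval -0.00 to 0.43; limma, adjusted p = 0.352). Drd2 (0.22), Adora2a (0.24), Ppp1r1b (0.24), Tac1 (0.21), Penk (0.19) and Pde10a (0.29) had adjusted p-values of 0.237 to 0.419 (limma). Within the KO/+ label the medians of the direct, indirect and shared lists were 0.10, 0.05 and 0.09. There 3 of 25 shared genes were at an unadjusted p under 0.05, against 4.57% of all genes. Between labelled genotypes without low-Htt libraries the 3 medians were 0.11, 0.13 and 0.14, so positive medians were not particular to the low-Htt libraries. Over all 24 libraries Penk (0.28) and Pde10a (0.29) were called higher in KO/+ (limma, adjusted p = 0.0297 and 0.0400).

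The myelin genes were lower in the low-Htt libraries, and none was called. All 11 tested had a negative difference (median -0.26), and 10 were at an unadjusted p under 0.05. The largest was that of Mog (-0.33), a surface protein of myelin, and Mal (-0.30) and Cnp (-0.26) had the smallest p-values. Their summed level ranged from 781 to 985 rescaled FPKM in the low-Htt libraries, from 853 to 1063 in the other libraries labelled KO/+ and from 874 to 1272 in those labelled +/+. Both KO/+ groups had lower medians (864 and 883) than the +/+ group (1115), and within the KO/+ label 0 of 11 were at an unadjusted p under 0.05. In bulk tissue, fewer cells of a type and less RNA per cell cannot be told apart. With the mean level of this list as a further term in the model, 795 genes were at an unadjusted p under 0.05, against 2268 without it. The list itself differed between the groups, so this count cannot separate the list from the groups, and the part of the list in the results was not tested.

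**Figure D3:**
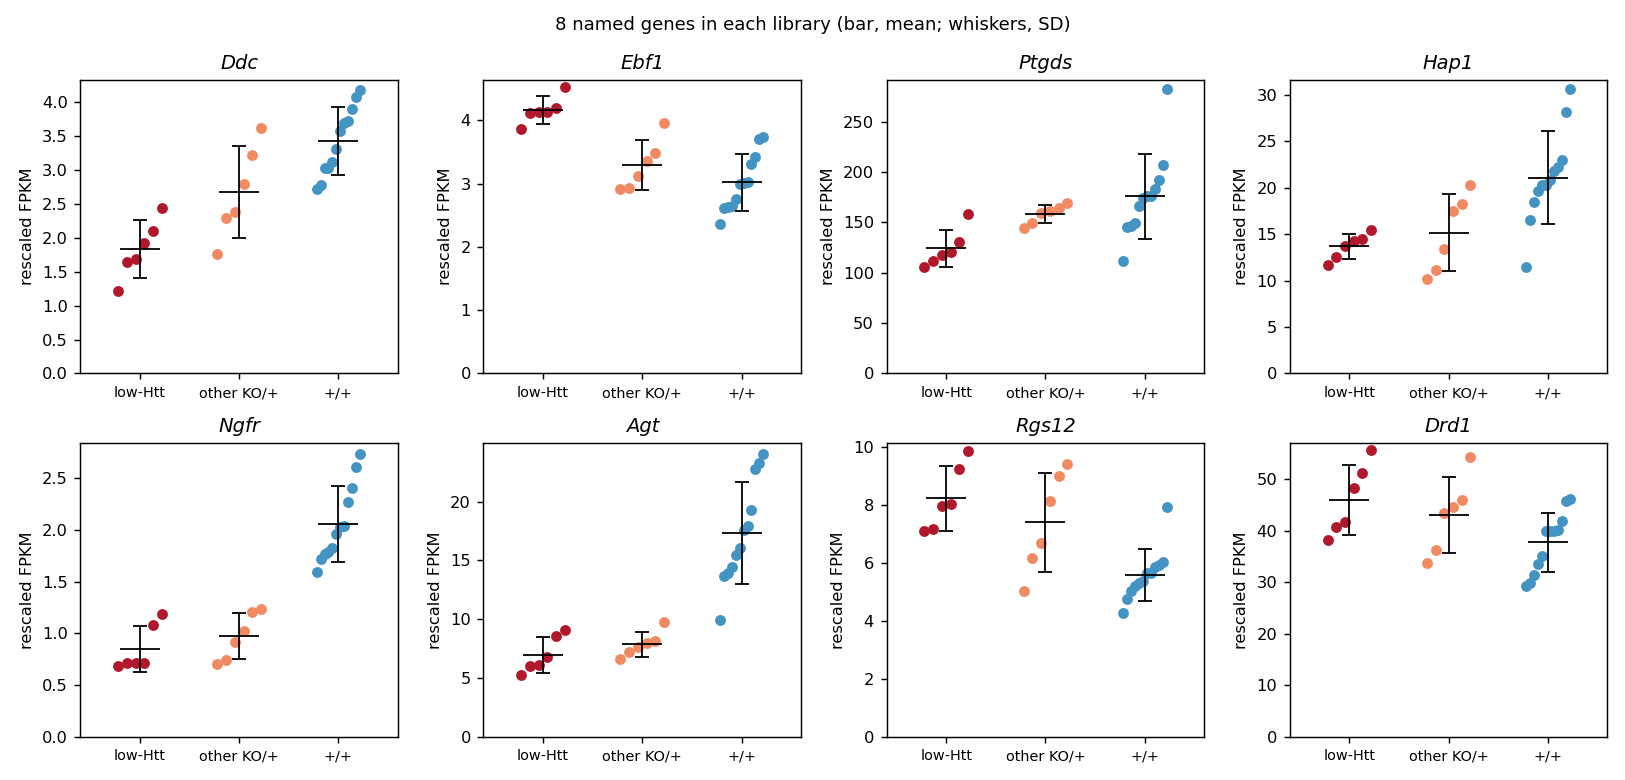
Rescaled FPKM (y axis) of 8 named genes in the 6 low-Htt libraries, the 6 other libraries labelled KO/+ and the 12 labelled +/+ (x axis); points are libraries, bars means and whiskers SD. Ngfr and Agt lie below every +/+ library in both KO/+ groups, whereas Ebf1 is higher in the low-Htt group with an overlap of 1 library.

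Other lists described cell types and pathways. Astrocyte genes had a median of -0.16, with 4 of 10 lower at an unadjusted p under 0.05, led by Gfap (-0.52). Septal and hypothalamic genes had a summed level of 9.73 to 12.1 in the low-Htt libraries, 9.72 to 12.8 in the other libraries labelled KO/+ and 15.4 to 143 in those labelled +/+. Several of them, the neuropeptide genes Pmch, Avp, Oxt and Hcrt among these, reached the filter through high values in comparison libraries, so no count or median is given for this list. Pmch was listed at 0 in at least 1 library of both groups and reached 0.244 in the low-Htt and 51.9 in the comparison libraries. Of 13 interneuron genes 3 were lower (Lhx8, Calb2 and Th; median -0.11). Within the KO/+ label 0 of 10 astrocyte genes and 1 of 13 interneuron genes were at an unadjusted p under 0.05.

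The summed markers of cells from outside the striatum overlapped between the groups. Summed choroid plexus genes ranged from 165 to 1265 in the low-Htt and from 41.4 to 1880 in the comparison libraries, with 0 of 10 at an unadjusted p under 0.05; Ttr, the main transcript of that tissue, ranged from 154 to 1211 and from 35.8 to 1776. Summed cortical excitatory genes ranged from 65.2 to 132 and from 60.6 to 152, with 1 of 11 higher (Lamp5), or 9.09% against 14.6% of all genes. The comparison libraries were themselves not alike in these 2 lists. Their KO/+ libraries had positive medians against +/+, 0.66 for cortical excitatory genes (3 of 11 called higher, against 2.39% of all genes called) and 0.65 for choroid plexus genes. Within the KO/+ label the low-Htt medians were -0.20 and -0.34. None of the 10 microglial, 12 endothelial and blood or 8 ependymal genes tested, and none of the 12 immediate early genes, was at an unadjusted p under 0.05. Of the 7 leptomeningeal genes 1 was lower. This was Ptgds, prostaglandin D synthase, at 106, 112, 118, 121, 130 and 158 rescaled FPKM in the low-Htt libraries against 111 to 283 in the comparison libraries (log2 difference -0.45, 95% interval -0.68 to -0.22; limma, adjusted p = 0.152). Within the KO/+ label Ptgds differed by -0.36 (unadjusted p = 0.000952, adjusted p = 0.980, limma), with low-Htt and other libraries overlapping in the single value of 158.

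Of 17 cholesterol synthesis genes 7 were lower and 0 higher at an unadjusted p under 0.05 (41.2% against 14.6% of all genes; median -0.11), and none was called. The members of smallest p were Sqle (-0.21) and Hmgcs1 (-0.20), both enzymes of the pathway, Insig1 (-0.21), its feedback regulator, and Idi1 (-0.18). Insig1 ranged from 9.96 to 13.0 rescaled FPKM in the low-Htt and from 11.5 to 15.0 in the comparison libraries, with overlap. Within the KO/+ label the list had a median of -0.12, with 5 of 17 at an unadjusted p under 0.05, and it had a median of -0.02 between labelled genotypes without low-Htt libraries. The contrast between the comparisons was not tested.

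Chaperone genes had a median of -0.10 with 2 of 15 lower (13.3% against 14.6% of all genes; Dnajb2, -0.24, and Hsp90aa1, -0.15). Autophagy genes had a median of -0.07 with 2 of 14 lower (14.3% against 14.6% of all genes; Lamp1, -0.15, a lysosomal membrane protein, and Map1lc3a, -0.14, an LC3 protein). The 12 genes of the primary cilium and of centriolar satellites had a median of -0.01 with 0 at an unadjusted p under 0.05, and Pcm1, the scaffold of the satellites, differed by -0.05. Of the 8 other polyglutamine disease genes 3 were higher (Atxn1, 0.13, Atxn7, 0.11, and Cacna1a, 0.19), with a median of 0.04 after rescaling and -0.07 on FPKM as deposited. Of 13 mitochondrial genes 1 was lower (mt-Nd6), or 7.69% against 14.6% of all genes. The 9 sex-linked genes, Xist and Ddx3y included, were tested with a term set from Xist and Ddx3y in the model. That 0 of them were at an unadjusted p under 0.05 therefore says nothing about the groups. Pisd, phosphatidylserine decarboxylase, was at 8.36 to 9.33 rescaled FPKM in the low-Htt and 7.93 to 10.5 in the comparison libraries and differed by 0.00 (95% interval -0.09 to 0.10).

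**Figure D4:**
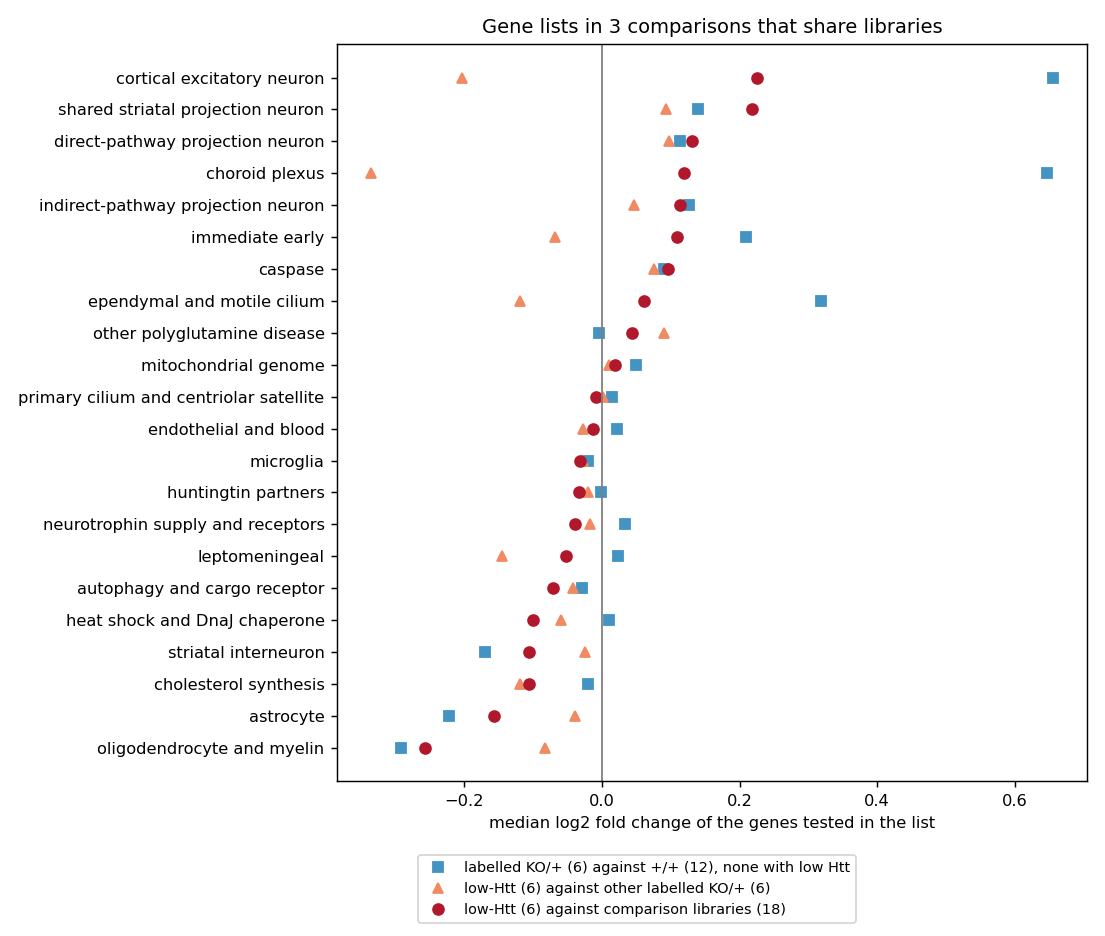
Median log2 fold change (x axis) of the genes tested in each of 22 lists (y axis) in 3 comparisons that share libraries: circles, low-Htt against comparison libraries; triangles, low-Htt against other libraries labelled KO/+; squares, labelled KO/+ against +/+ without low-Htt libraries. The myelin list is at -0.26, -0.08 and -0.29, and the cholesterol synthesis list at -0.11, -0.12 and -0.02.

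Within 2 Mb of Htt 54 genes were tested, of which 0 were called and 12 were at an unadjusted p under 0.05 (22.2% against 14.6% of all genes), with a median log2 difference of 0.01. The nearest gene before Htt, Grk4, a receptor kinase whose annotation ends 6.43 kb away, was at 0.392 to 0.858 rescaled FPKM in the low-Htt and 0.163 to 1.20 in the comparison libraries (log2 difference -0.06, 95% interval -0.38 to 0.26). Msantd1 overlaps the end of Htt on the same strand, so reads there may be shared, and it differed by 0.15 (95% interval -0.15 to 0.45). The nearest gene after Htt, Rgs12, a regulator of G protein signalling 36.9 kb away, was at 7.10, 7.17, 7.99, 8.05, 9.24 and 9.87 in the low-Htt libraries. It ranged from 5.04 to 9.42 in the other libraries labelled KO/+ and from 4.27 to 7.94 in those labelled +/+, and the groups overlapped. Its difference was 0.41 (95% interval 0.14 to 0.67; limma, adjusted p = 0.189), within the KO/+ label 0.16 and between labelled genotypes without low-Htt libraries 0.37 (limma, adjusted p = 0.120). Of the other 10 neighbours, Nop14 (-0.22) and the longer of 2 Trmt44 entries (0.21) were at an unadjusted p under 0.05, and Add1 (0.09), Sh3bp2 (0.15), Mfsd10 (0.03), Gm42867 (0.12), Dok7 (-0.08), Lrpap1 (0.04), Adra2c (0.15) and the other Trmt44 entry (0.02) were not.

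The genes below were those of smallest adjusted p between labelled genotypes without low-Htt libraries, after a further filter on low mean levels. They were chosen after their values were seen and show where the low-Htt libraries stood. The 6 lower in KO/+ were Ngfr, Slc6a11, a GABA transporter of astrocytes, Agt, angiotensinogen, Sparc, a matrix glycoprotein, Tmem229a and Lancl3. Slc6a11 was at 13.3 to 19.2 rescaled FPKM in the low-Htt libraries, 14.2 to 20.4 in the other libraries labelled KO/+ and 22.2 to 39.9 in those labelled +/+. Agt was at 5.26 to 9.06, 6.61 to 9.72 and 9.97 to 24.0 in the same order. For Ngfr, Slc6a11, Agt, Sparc and Tmem229a all 6 low-Htt libraries lay below every +/+ library, and for Lancl3 5 did. The same +/+ libraries served to choose these genes, which favours this order, and its share over all genes is not given. Among those higher in KO/+ were Thbs4, H2-T23, Pdzrn3, Ctgf and Fam163b. Thbs4, a thrombospondin, was at 2.18 to 3.99 in the low-Htt libraries, 2.34 to 3.90 in the other libraries labelled KO/+ and 0.954 to 2.16 in those labelled +/+. H2-T23, a non-classical MHC class I gene, had another order: the low-Htt libraries (1.90 to 2.73) lay with the +/+ libraries (1.99 to 3.10) and below all other libraries labelled KO/+ (2.90 to 4.14). The gene was chosen for its high level in those other KO/+ libraries, which favours this order. Within the KO/+ label it differed by -0.42 and was not called (unadjusted p = 0.000181, adjusted p = 0.980, limma).

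The low-Htt difference was also compared between libraries with high Xist and those with high Ddx3y. No gene was called for that difference (0 of 15574, limma), with 1310 at an unadjusted p under 0.05 (8.41%) and a smallest adjusted p of 0.565.

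The genes whose log2 rescaled level was most like that of Htt are given as a description. Over the 18 comparison libraries they were 2 gene models that carry clone names (Pearson's r = 0.888 and 0.851, Spearman's rho = 0.810 and 0.891), Gm43871 (r = 0.862), Csmd1 (r = 0.857), 3110039M20Rik (r = 0.853) and Zfp207 (r = 0.845), and without the 2 libraries farthest from the median of Htt r was 0.815 for the first of these and 0.866 for Csmd1. Over all 24 libraries other genes led, Scyl3 (r = 0.659, rho = 0.757), Cav2 (r = 0.647), Gm10155 (r = 0.644), Slirp (r = 0.636), Rhebl1 (r = 0.636) and Dynlt1-ps1 (r = 0.628). Without the 2 farthest libraries these became 0.599 for Scyl3, 0.545 for Cav2, 0.523 for Gm10155, 0.424 for Slirp, 0.479 for Rhebl1 and 0.436 for Dynlt1-ps1, so they rest in part on those libraries. The 2 sets of 6 had no gene in common. The points share library composition and depth, and these are the highest of all genes tested.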

How the data were processed

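Total RNA was extracted with RNeasy kits, depleted of rRNA, made into directional libraries (NEBNext Ultra II) and sequenced on a NovaSeq6000. For every library the authors deposited gene-level FPKM and the confidence bounds of each value. The submitters' notes name bcl2fastq 2.20, Trimmomatic 0.30, TopHat2 2.0.14, SAMtools 1.3, HTSeq 0.6.1p1 and build GRCm38.p4; the program that gave FPKM is not given in the sources used here. Raw counts were not analysed here, so no count model was run.

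Of 47597 entries, 23 without an OK status in every library were left out. FPKM was divided by median-of-ratios factors from the 17709 entries above 0 in all 24 libraries. Entries that averaged 0.5 or more rescaled FPKM were tested as log2(rescaled FPKM + 0.5) with limma 3.58.1 in R 4.3.3 (lmFit and eBayes), so fold changes of low genes are understated. A term for high Xist or high Ddx3y was included. P-values are two-sided, adjusted by Benjamini-Hochberg over all genes tested, without Htt, and called under 0.05. The model was checked on simulated data. Depth was estimated from the deposited bounds of genes with 1 transcript of at least 2000 bases; 33.5 to 40.5% of the implied low fragment numbers were whole to within 0.05, so it is approximate.

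The low-Htt group, the 24 gene lists and the named genes were chosen with earlier results of these data known. Named genes were the 10 of smallest p (none being called), 6 neighbours of Htt on each side, up to 4 members a list, and a fixed set of huntingtin, striatal and marker genes; some results are not reported here. 1 library (striatum female 3, low-Htt) has a title that names the other mouse line and was placed by its genotype label. Replicate numbers did not pair libraries (mean correlation of same-numbered libraries across the groups -0.02), and no 2 libraries were duplicates (highest correlation 0.947).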

Additional observations from a re-analysis of the deposited data

Results flagged for a closer look

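Among the 6 low-Htt libraries, 52 quantities were checked for a library set far from the other 5; about 1 in 20 such groups is marked by chance, and 4 were marked here. Cortex female 2 was the highest for Add1 (83.5 rescaled FPKM, others 70.0 to 73.9), Atp6ap1l (5.29, others 4.03 to 4.43) and Sh3bp2 (2.31, others 0.465 to 0.930). Cortex male 1 was the lowest for Lrpap1 (16.6, others 19.2 to 20.6).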

How the results depend on the processing

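The main count of 0 genes between low-Htt and comparison libraries became 1 (Ddc, lower) with a filter of at least 2, with trended and robust eBayes, with array weights and at an adjusted p under 0.1. It became 941 against +/+ libraries alone and, in a setting chosen after seeing the data, 6 with at least 40% of FPKM in 10 entries as a condition. Leaving out single libraries gave 0 to 2 calls, with calls only without cortex KO/+ male 1 (2), striatum KO/+ male 1, cortex KO/+ female 1 or striatum KO/+ female 2 (1 each). It stayed 0 under the other settings run, Htt as a continuous term (867 at an unadjusted p under 0.05) and the threshold on rescaled Htt (1436; it moves 2 libraries) among them.

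Between labelled genotypes over all 24 libraries, 1599 calls became 2443 on FPKM as deposited, 760 with cortical markers as a term, 4 with the myelin list, 2478 at an adjusted p under 0.1 and 8 with only libraries whose sex-linked transcripts go with labelled sex (chosen after seeing the data); single libraries left out gave 1187 to 1683. Without low-Htt libraries, 370 calls became 0 with cortical markers, 0 with the myelin list, 227 with array weights, 746 at an adjusted p under 0.1, 0 with only sex-concordant libraries (1118 at an unadjusted p under 0.05) and 18 with at least 40% of FPKM in 10 entries; single libraries left out gave 91 (without cortex KO/+ male 3) to 466. The difference between Xist-high and Ddx3y-high libraries stayed at 0 calls, with 0 also as the lowest and highest count without single libraries, except for 1 with only sex-concordant libraries.

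With the replicate block the counts were 0 for low-Htt against comparison libraries, 1425 and 130 for the labelled genotypes with and without low-Htt libraries, and 0 for the difference by sex-linked transcripts; same-numbered libraries were not paired (mean correlation -0.02). The fold changes of the 10 genes of smallest p and of Ptgds kept their direction under the settings run; the other named genes were not followed through them, and within the KO/+ label some turned, such as Thbs4 (-0.12), Ctgf (-0.48) and Lancl3 (0.06). The number of fragments limits low genes most, and the cause of the changes in count was not tested.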
